A study of Mus musculus with 8 samples.

Results

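The constitutive regions at gene ends are the stretches of open chromatin that every ATAC-seq library of the series held and that lay at an end of a gene. Peaks of the 8 libraries on chromosomes 1 to 19 were merged where they overlapped by at least 1 bp, which gave 139157 regions. Of these, 34676 were overlapped by a peak of each of the 8 libraries, and 13900 of them, 9.99% of all merged regions, lay within 1 kb of either end of a protein-coding or long noncoding RNA (lncRNA) gene of RefSeq. "Constitutive" means only that these 8 libraries held a peak there. Members were chosen by the presence of a peak in every library and by the distance to a gene end, so neither is a finding. Beyond the need for a called peak in each library, the strength of a member was not used to choose it. With a stricter peak threshold (−log10 q of at least 5) there were 10882 members. Regions without a peak in some library are not members, so the shifts below leave out changes that remove a peak.

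ATAC-seq marks accessible DNA with the Tn5 transposase, and the series applied it to satellite cells, the stem cells of skeletal muscle, from hindlimbs of C57BL/6 mice. The LncMyod Knockdown cells were cultured for differentiation and received siRNA against LncMyod, a long noncoding RNA encoded next to Myod1, for 48 h before harvest. LncMyod Control cells were cultured for differentiation with control siRNA, whose duration the labels do not record. ASC were cells isolated 2.5 days after muscle injury, and QSC are labelled by that name alone, the usual abbreviation for quiescent satellite cells. Each group had 2 libraries, and the labels do not say whether a pair of libraries comes from 2 preparations of cells. The p-values therefore reflect how far these libraries scatter, which may be technical scatter. The ASC and QSC groups are called isolated below and the siRNA groups cultured, although the growth protocol (F10 medium with serum) and the siRNA protocol in the labels are worded alike for all 8 samples. The treatment of ASC and QSC is labelled none, and 1 of the LncMyod Knockdown libraries has its treatment spelled LndMyod. Peak lists hold no RNA level, so the loss of LncMyod was not checked.

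A gene start, or promoter, is where RNA polymerase II assembles, and the promoters of genes that most cells use are commonly rich in CpG dinucleotides and free of nucleosomes in nearly every cell type. The 3′ end of a gene has no such general need for open DNA, and open chromatin there can belong to an enhancer, an insulator or the promoter of a neighbour. Satellite cells leave quiescence after injury, divide as myoblasts and then differentiate and fuse, a program led by the transcription factors Pax7, Myf5, Myod1 and Myog.

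Promoter windows of RefSeq (build GRCm38.p6, from 250 bases before to 50 bases after the start, plus strand in all 6) are printed for members that carry the results below. Kbtbd7 (chr14:79426261-79426560) and Ankef1 (chr2:136532071-136532370) are among the strongest members. Lmod2 (chr6:24597521-24597820) belongs to a member that was stronger in cultured cells, and Vwa3b (chr1:37029063-37029362) to one that was weaker there. Ech1 (chr7:28825088-28825387) was weaker in ASC than in QSC, and Dhrs9 (chr2:69380212-69380511) weaker in LncMyod Control than in ASC. Capitals mark matches, on either strand, to the 12 motifs that are spelled out with the motif results.
Kbtbd7: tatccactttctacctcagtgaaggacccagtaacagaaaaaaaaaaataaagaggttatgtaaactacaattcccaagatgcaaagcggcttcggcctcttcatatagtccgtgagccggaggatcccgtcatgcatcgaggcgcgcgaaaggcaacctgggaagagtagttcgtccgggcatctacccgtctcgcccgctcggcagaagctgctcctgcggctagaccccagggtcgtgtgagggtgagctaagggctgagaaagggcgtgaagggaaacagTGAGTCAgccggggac
Ankef1: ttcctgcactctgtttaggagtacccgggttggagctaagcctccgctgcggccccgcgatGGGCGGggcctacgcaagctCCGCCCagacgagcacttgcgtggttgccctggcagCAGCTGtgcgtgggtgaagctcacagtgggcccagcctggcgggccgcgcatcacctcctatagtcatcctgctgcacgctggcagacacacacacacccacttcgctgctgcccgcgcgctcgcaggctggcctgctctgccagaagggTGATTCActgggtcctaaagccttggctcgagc
Lmod2: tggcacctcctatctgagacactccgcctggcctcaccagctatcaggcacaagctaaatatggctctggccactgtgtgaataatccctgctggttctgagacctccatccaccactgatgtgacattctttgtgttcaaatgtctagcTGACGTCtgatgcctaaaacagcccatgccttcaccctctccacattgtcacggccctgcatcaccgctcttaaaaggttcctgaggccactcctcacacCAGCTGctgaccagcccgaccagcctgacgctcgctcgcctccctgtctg
Vwa3b: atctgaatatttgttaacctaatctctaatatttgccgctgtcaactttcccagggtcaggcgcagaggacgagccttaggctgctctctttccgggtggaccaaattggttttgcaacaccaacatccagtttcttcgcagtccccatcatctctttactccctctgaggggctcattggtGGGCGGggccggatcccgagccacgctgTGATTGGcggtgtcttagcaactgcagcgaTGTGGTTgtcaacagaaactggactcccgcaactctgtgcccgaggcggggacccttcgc
Ech1: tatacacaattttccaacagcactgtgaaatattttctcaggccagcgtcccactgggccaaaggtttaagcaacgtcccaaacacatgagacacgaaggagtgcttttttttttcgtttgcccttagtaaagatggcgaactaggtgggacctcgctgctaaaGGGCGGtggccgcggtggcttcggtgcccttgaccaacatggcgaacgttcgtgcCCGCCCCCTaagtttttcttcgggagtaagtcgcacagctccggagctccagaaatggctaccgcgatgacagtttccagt
Dhrs9: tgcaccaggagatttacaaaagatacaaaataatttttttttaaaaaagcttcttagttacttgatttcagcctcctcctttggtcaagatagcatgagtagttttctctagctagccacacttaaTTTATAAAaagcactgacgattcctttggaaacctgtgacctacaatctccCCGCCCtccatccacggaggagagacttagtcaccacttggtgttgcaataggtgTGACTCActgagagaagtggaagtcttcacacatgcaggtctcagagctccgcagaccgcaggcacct
The Lmod2 window holds 8 CpG dinucleotides, a CRE match and an E-box match, and the Dhrs9 window holds 5 CpG with an AP-1 match, a GC box and a TATA box read on both strands of overlapping bases. The Kbtbd7 and Ankef1 windows hold 19 and 21 CpG. Ech1, with 19 CpG, has a GC box in a run of capitals that it shares with the CTCF match, and Vwa3b, with 15 CpG, holds a GC box, a CCAAT box and a RUNX match.

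Most members sat on a gene start. By the strand of the genes in reach, 8386 members (60.3%) touched gene starts only, 1158 (8.33%) gene ends only and 1051 (7.56%) both. For the other 3305 (23.8%) the strand of at least 1 gene in reach was not known, because RefSeq's promoter table covers 77.9% of the 33073 genes. A gene end lay inside 11503 members (82.8%). Of 10012 members with a known start in reach, 9000 (89.9%) contained it, and they were placed asymmetrically: their centre lay a median of 158 bp downstream of the start, with 450 bp upstream of it and 742 bp downstream. Starts of genes on opposite strands, the arrangement of divergent promoters, met in 1850 members (13.3%). A single gene was in reach of 10368 members, 2 genes of 3347, 3 genes of 179 and 4 or more of 6.

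The members covered more of the protein-coding than of the lncRNA genes. A member lay at 12677 of 20665 protein-coding genes (61.3%) and at 3418 of 12408 lncRNA genes (27.5%). Among protein-coding genes of known strand, 59% held a member at the start and 10.2% at the end, and among lncRNA genes 24% and 9.36%. By chromosome the share of protein-coding genes with a member ran from 49.6% on chromosome 7 and 50.1% on chromosome 14 to 69.2% on chromosome 8 and 70% on chromosome 12. Of the regions held by all 8 libraries 40.1% lay at a gene end, against 14.1% of those held by 7 and 8.83% of those held by 1. Regions at gene ends that 7 libraries held numbered 1062 and had a median width of 1042 bp, against 1256 bp for the members.

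Strength was compared as the percentile of the fold enrichment that the authors' peak caller gave (0 weakest, 100 strongest), ranked within each library over the 34676 regions that all libraries held. The members' median percentile was 58.2 and 61.7 in LncMyod Knockdown, 56.7 and 57.1 in LncMyod Control, 61 and 64.2 in ASC and 61.3 and 62.8 in QSC. The 20776 constitutive regions away from gene ends had medians of 45.2 and 43.5, 46.1 and 45.9, 43.4 and 41.1, and 43.5 and 42.5 in the same libraries. Members were above the other regions in 8 of 8 libraries, by 16.5 percentile points on average (exact two-sided sign-flip permutation test, p = 0.00781, the smallest that 8 libraries can give). All 8 libraries rank the same regions, so their differences are repeated readings of 1 set. This p therefore says only that the sign was the same in each library. The gap averaged 13.3 ± 3.43 points in cultured and 19.7 ± 2.58 points in isolated libraries (SD, n = 4 each), a difference of -6.42 points that the exact permutation test did not place past the threshold (p = 0.0857; smallest possible 0.0286).

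The strength of a member depended on which end of a gene it held. Members at gene starts only had library medians between 62.4 and 71.1, and members at opposing starts between 65 and 73. Members that touched both a start and an end had medians between 46.9 and 56.5. Members at gene ends only had medians between 31.8 and 36.5, below the regions away from genes in 8 of 8 libraries. The start-only median exceeded the end-only median by 30.8 and 34.1 points in LncMyod Knockdown, 26.2 and 28.1 in LncMyod Control, 31.9 and 39.3 in ASC and 30.7 and 33.5 in QSC. Cultured libraries averaged 29.8 ± 3.46 points and isolated libraries 33.8 ± 3.78 (SD, n = 4 each), and the difference of -4.06 did not pass the exact permutation test (two-sided p = 0.2). Members whose nearest gene was protein-coding (11370) had medians between 59.5 and 67.9, and those nearest to an lncRNA gene (2530) between 44.7 and 46.7.

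**Figure D1:**
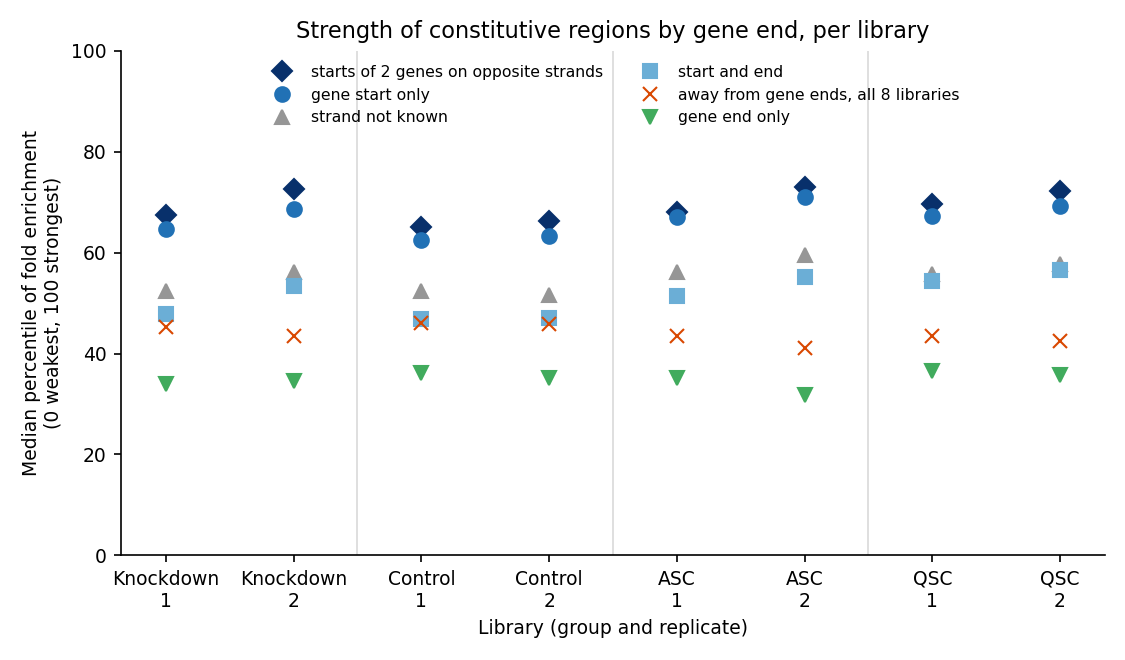
Median percentile of fold enrichment (y axis, 0 weakest to 100 strongest of 34676 regions) in each of the 8 libraries (x axis), for members split by the gene ends they touch and for constitutive regions away from gene ends. In every library the start-only members (62.4 to 71.1) stand above the regions away from gene ends (41.1 to 46.1), and the end-only members (31.8 to 36.5) below them.

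Libraries differed in ways that move with these medians. The lists held 93986 and 78429 peaks on chromosomes 1 to 19 in LncMyod Knockdown, 81404 and 79941 in LncMyod Control, 69136 and 58791 in ASC and 68231 and 63779 in QSC. Peaks at or above 5 in −log10 q made up 50.1% of the list in LncMyod Knockdown replicate 2 and 52.5% in ASC replicate 2, the lowest shares, and 69.8% in LncMyod Control replicate 1, the highest. Those first 2 libraries have the highest member median of their group. Members took 24.6% of the covered length in LncMyod Knockdown replicate 1 and 35.5% in ASC replicate 2. The lists hold no read counts, so depth is unknown, and its part in these medians was not tested.

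The strongest members were mostly narrow and lay at gene starts. They were chosen for their median percentile, which leaves little room above it, so their steadiness is not a finding. The member at the start of Kbtbd7, a substrate adaptor of a cullin ubiquitin ligase (chr14:79426167-79426890), had a fold enrichment of 13.8 and 12.2 in LncMyod Knockdown, 12.9 and 14.2 in LncMyod Control, 12.9 and 11.4 in ASC and 11.7 and 11.5 in QSC. Others at the top, all at gene starts and all with a median percentile of at least 99.8, were Pex7 (the import receptor for a class of peroxisomal enzymes), Ankef1, AA465934, N6amt1 (a methyltransferase), Smim8, Zfp317 (a zinc-finger protein) and Cox16 (an assembly factor of cytochrome c oxidase). Apart from AA465934, with 1128 bp, they were between 611 and 750 bp wide. Their folds ran from 9.35 to 14.2 over the 8 libraries.

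The 6 weakest members were chosen for the lowest median percentiles, so that their low place is not a finding either. A region 511 bp from an end of Hes1, the repressor that Notch signalling switches on (chr16:30066781-30067285), had folds of 1.7 and 1.78 in LncMyod Knockdown, 1.98 and 1.6 in LncMyod Control, 1.92 and 2.03 in ASC and 1.62 and 1.59 in QSC. Gm33862 and Gm11772 had start regions with folds between 1.78 and 2.09. A region shared by Slc35b2 and Hsp90ab1 (the gene of a constitutive heat shock protein) had folds between 1.75 and 2.2, and a region shared by Bloc1s1 and Rdh5 between 1.88 and 2.11. At the end of Slc34a3, a renal phosphate transporter, the folds were 1.98 and 1.83 in LncMyod Knockdown, 1.86 and 2.01 in LncMyod Control, 2.02 and 1.97 in ASC and 2.56 and 2.82 in QSC. That member fell in ASC against QSC (shift -1.32, SE 0.31, limma adjusted p = 0.0125), the only called shift between ASC and QSC among these 6.

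Wide members ranked low. Over the members, width and median percentile had a Spearman correlation of -0.38 (n = 13900 regions, which share the same 8 libraries, so no p is given). The median percentile was 67.8 among members of 296 to 927 bp, 81.6 among those of 928 to 1142 bp and 32 among those of 1822 to 6556 bp. The 6 widest were Flnc (6556 bp; filamin C, an actin crosslinker of muscle), Fscn1 (5891 bp; fascin, an actin bundler), Trim8 (5599 bp), Gfra1 (5447 bp; a receptor for GDNF), Junb (5365 bp; an AP-1 subunit) and Myod1 (5211 bp). Their median percentiles lay between 2.74 and 14.3. A member with several peaks in a library was given the highest of their folds. The lists hold broad peaks, and each peak carries a fold for its whole length. Length and fold are therefore not independent readings. How far the fold of a long peak is lower by the way it is computed was not tested.

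**Figure D2:**
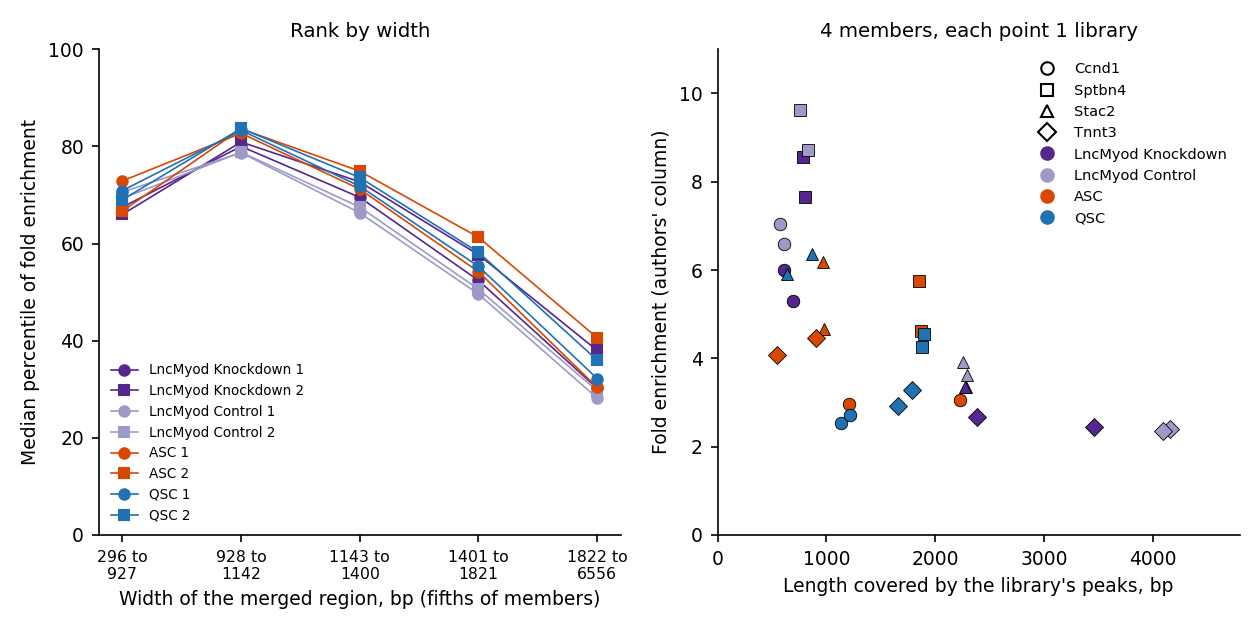
Left, median percentile of fold enrichment (y axis) in 5 classes of member width in bp (x axis), with a line for each of the 8 libraries; members of 1822 bp and more rank lowest in all of them. Right, fold enrichment (y axis) against the length in bp that the library's peaks covered (x axis) for 4 members, each point 1 library; Ccnd1 and Sptbn4 have short, strong peaks in cultured cells, and Tnnt3 and Stac2 long, weak ones there.

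Promoter sequence set the members apart from other promoters. A promoter window was compared for each gene with one in RefSeq's table, the first listed: 9690 windows lay inside a member and 16058 did not. Their median GC content was 63.3% and 48%, and their median CpG observed over expected 0.804 and 0.225. The GC box GGGCGG, bound by Sp1 and its relatives, occurred in 70.5% of the windows in members and in 15.7% of the others. The ETS core CCGGAAG occurred in 18.4% against 3.79%, the YY1 core ATGGCGG in 8.56% against 1.61%, the NRF1 core GCATGCG in 6.85% against 1.72% and the CRE TGACGTC in 6.32% against 1.6%. A stretch of the CTCF motif, AGGGGGC, occurred in 18.2% against 5.94%, and the CCAAT box CCAATCA in 11.2% against 6.19%. Apart from the CCAAT box, these letters favour GC-rich sequence, and base composition was not matched.

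Other motifs were rarer in members or equally common. The TATA box TATAAA occurred in 5.76% of windows in members and 19.3% of the others. AP-1 sites (TGANTCA) occurred in 5.1% against 9.74%, RUNX sites (TGTGGTT) in 3.04% against 6.88%, TEAD sites (CATTCC) in 11% against 16.6% and the E-box CAGCTG, which MyoD and myogenin bind, in 15.8% against 16.4%. All motifs were read on both strands, palindromes once, and matches may overlap. A match describes the letters of a window and is not evidence of binding. No match says only that these letters are absent from that window.

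Within the members, motif content moved with strength. In the strongest quintile of these promoters (n = 1938), 29.4% had the ETS core, against 7.17% in the weakest (n = 1938). The CCAAT box occurred in 17.6% against 6.45%, YY1 in 10.5% against 3.51% and NRF1 in 9.29% against 3.2%. The E-box went the other way, with 12.8% in the strongest and 18.3% in the weakest, as did the CTCF letters, with 14.9% and 21.2%. GC content was 61.3% and 63.3%. Among promoters whose member ranked higher in ASC than in QSC (n = 405), 24.2% held the E-box, 11.6% the ETS core and 65.4% the GC box, against 16.4%, 23.4% and 52.6% of those that ranked lower (n = 359), with a median GC content of 61.7% against 58.3%. For LncMyod Control against ASC the higher promoters (n = 166) held the E-box in 24.7%, the ETS core in 14.5% and the GC box in 40.4%. Among the lower ones (n = 561) the shares were 16%, 10.9% and 74.2%. Their GC content was 55.7% in the higher and 64.7% in the lower promoters. These shares are descriptions of chosen sets and were not tested.

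**Figure D3:**
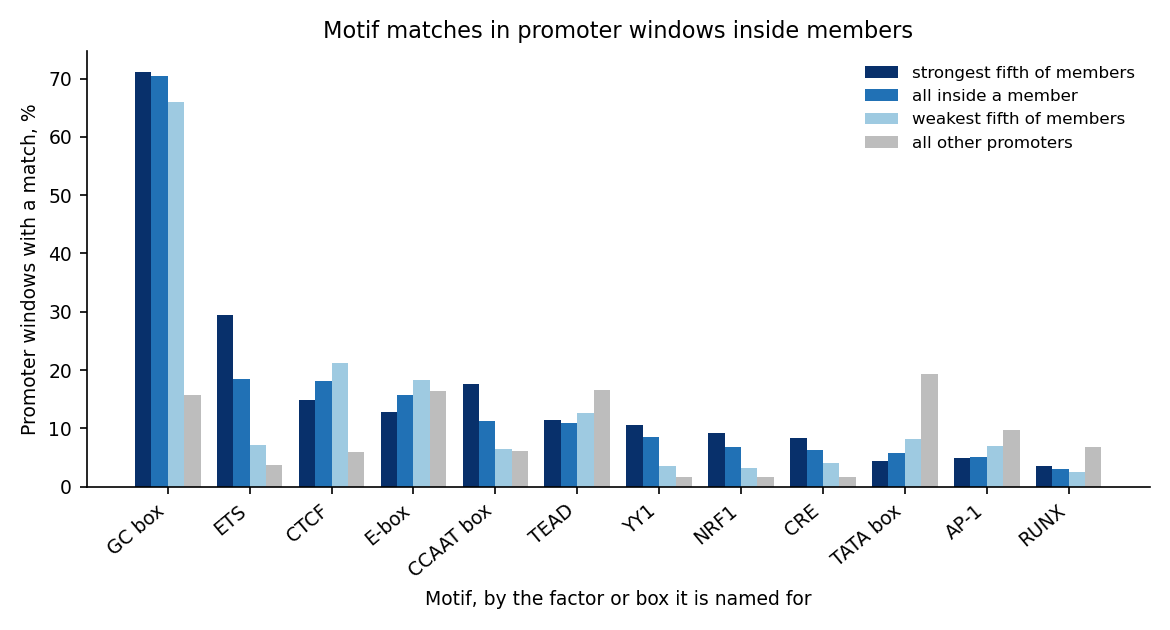
Share of promoter windows of 300 bases with a match (y axis, %) for 12 motifs (x axis), in the strongest quintile of members, all windows inside a member, the weakest quintile and all other promoters. The ETS core is in 29.4%, 18.4%, 7.17% and 3.79% of these sets, and the TATA box in 5.76% of windows in members and 19.3% of other promoters.

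Nearly all genes of the basic machinery of the cell held a member. Members lay at 36 of 38 proteasome genes, 73 of 77 genes of the mitochondrial ribosome, 71 of 76 of the cytosolic ribosome, 12 of 12 RNA polymerase II subunits, 27 of 28 Mediator subunits, 21 of 21 aminoacyl-tRNA synthetases, 31 of 31 splicing factors and 20 of 20 subunits of the SWI/SNF chromatin remodelers. The share of all protein-coding genes with a member is 61.3%. Their median percentiles were 83.3 for Mediator, 81 for splicing factors, 76.8 for the mitochondrial ribosome, 76.7 for the proteasome, 74.7 for the synthetases, 69.9 for the cytosolic ribosome, 67.8 for SWI/SNF and 59.2 for RNA polymerase II, with 59.3 over all members. Cohesin and CTCF genes held members at 5 of 8 (median 78.6), cell cycle genes at 33 of 34 (median 59.6) and host genes of small nucleolar RNAs at 15 of 17 (median 65.8).

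Members at genes of the muscle lineage and at immediate early genes had lower median percentiles and larger median widths than all members. The myogenic program had members at 30 of 34 genes (median percentile 27.6, median width 1557 bp), genes known from quiescent satellite cells at 27 of 30 (22.3, 2172 bp) and immediate early genes at 29 of 29 (36.9, 2146 bp). Contractile genes held members at 26 of 51 (23.9, 1781 bp), 51% against 61.3% of all protein-coding genes. The median width of all members was 1256 bp. Marker lists of other cells, described below, shared both traits, so they were not particular to muscle genes. The values were 18.7 and 2142 bp for mural, 16.3 and 1475 bp for glial and 28.1 and 1887 bp for endothelial markers. Fibroadipogenic markers had 34.7 and 1340 bp, and leukocyte markers 36.5 and 1282 bp. Of the named regulators, Myod1 had percentiles of 7.8 and 15.9 in LncMyod Knockdown, 3.45 and 6.53 in LncMyod Control, 19 and 29.7 in ASC and 12.7 and 17.6 in QSC. Myf5, which starts the program beside Myod1, was low in every library (3.24 to 19.3), as was Myog, the factor of terminal differentiation (2.38 to 24.5). Mymk, the fusion protein myomaker, ran from 16.3 to 62.5.

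Genes often used as references lay at very different places in the list. Ctcf had percentiles between 38.4 and 66.6, Polr2a (the largest subunit of RNA polymerase II) between 36.2 and 57.3, Eef1a1 (translation elongation) between 32.9 and 59.8 and Tbp (the TATA-binding protein) between 56.9 and 82.5. Des, the muscle intermediate filament desmin, held a member at its start (37.6 to 66.7) and a weaker one at its end (7.13 to 25.3). Ckm, muscle creatine kinase, held its member at its end, shared with A930016O22Rik (53.2 to 92.1). Gapdh held one at its start, shared with Ncapd2 (3.14 to 23.6), and one shared with Iffo1, which rose in ASC against QSC (15.2 and 28.5 in ASC, against 3.41 and 3.5 in QSC; shift 1.02, SE 0.29, limma adjusted p = 0.0331). No member was found at Actb, the gene of cytoplasmic beta-actin: its region held by all 8 libraries (chr5:142905560-142906959) lies 1017 bp from the outermost gene end in RefSeq, just past the limit. At Ankrd23 the best-held region in reach was held by 7 libraries.

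Gene families of other tissues rarely held a member. Olfactory receptors had one at 3 of 1100 genes, vomeronasal receptors at 2 of 352, keratins at 5 of 49 and liver genes at 2 of 14. Among markers of cells that a satellite cell preparation could also hold, members lay at 5 of 20 leukocyte, 7 of 15 endothelial, 9 of 15 fibroadipogenic, 10 of 12 mural and 6 of 9 glial genes, with median percentiles of 36.5, 28.1, 34.7, 18.7 and 16.3. A peak at a gene does not show that it is expressed, and how far such cells contributed was not tested.

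Shifts in strength between groups were tested with limma on normal scores of the ranks, fitted to all 34676 regions and 8 libraries at once. Normal scores spread the ranks as standard deviations of a normal curve, so a shift is given in SD, and a called shift has a Benjamini-Hochberg adjusted p under 0.05 over all regions. "Rose" and "fell" refer to called shifts, and each is relative to the other constitutive regions, not to the genome. A region that is open in more cells and one that is more open per cell cannot be told apart in these bulk libraries. In the 3 comparisons with calls, 10.5%, 10.3% and 21.9% of members were called, against 25.9%, 20.5% and 37.6% of the regions away from gene ends. These shares were not tested against each other. The median gap between replicates was 0.18 to 0.29 SD at members, against 0.24 to 0.33 SD away from gene ends, over the 4 groups.

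**Figure D4:**
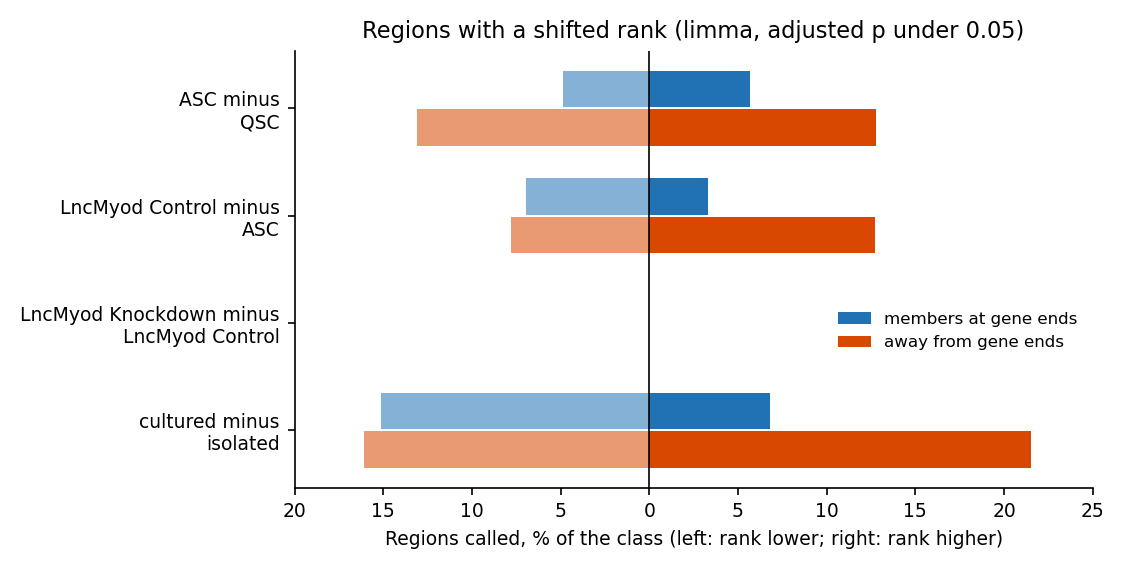
Share of regions called (x axis, % of the class; left, rank lower, right, rank higher) in 4 comparisons (y axis), for members and for constitutive regions away from gene ends. Members have the smaller share in each comparison with calls, and LncMyod Knockdown against LncMyod Control has none in either class.

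The comparison of ASC with QSC concerns activation after injury. In ASC 790 members rose and 675 fell (10.5% of members; 19.7% of all constitutive regions were called, 9.95% higher and 9.78% lower), and 12435 were not called. Members at gene ends only were called in 21.6%, those at starts only in 9.13% and those at opposing starts in 6.76%. Of the 16 members named for the lowest p, 8 lay at gene ends only and 4 at starts only, and for 4 the strand was not known.

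The 8 members named for their rise in ASC were picked for a low p and lay near genes of varied function. A region 974 bp from an end of Lmod3, a nucleator of actin thin filaments in muscle, had percentiles of 91.8 and 96.9 in ASC, against 6.37 and 22.7 in QSC (shift 2.77, SE 0.28, limma adjusted p = 0.000274). Both cultured groups were above ASC, between 97.4 and 99. A region 829 bp from the end of Nt5e, the CD73 enzyme that makes adenosine outside cells, had 72.7 and 77 in ASC, against 14.7 and 9.43 in QSC (shift 1.86, SE 0.21, adjusted p = 0.000428). The region near Bhlhe40, a transcriptional repressor of the basic helix-loop-helix family, had 37.7 and 61.8 in ASC, against 0.293 and 0.437 in QSC, with folds of 4.37 and 4.47 against 2.15 and 2.21 (shift 2.68). In QSC the Bhlhe40 peak was thus near the bottom of the list, though present.

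Others that rose had the same form. The region inside which the end of Asb6 lies, also in reach of Ntmt1 (a protein N-terminal methyltransferase), had percentiles of 31.4 and 46.7 in ASC, against 0.244 and 0.088 in QSC. AI467606 had 79.9 and 81.2 against 17.3 and 10.6, and Gm4925 had 69.6 and 71.9 against 9.26 and 8.04. Gm3776 differed from these in the cultured groups: it had 77 and 69.3 in ASC, against 4.85 and 5.34 in QSC, and only 13.3 to 27.9 in the 4 cultured libraries. Rab37, a GTPase of vesicle secretion, was alike, with folds of 5.73 and 4.77 in ASC, 2.92 and 2.63 in QSC and 3.71 to 4.37 in culture.

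The 8 members named for their fall in ASC also lay near genes of varied function. At the start of Ech1, an enoyl-CoA isomerase of fatty acid oxidation, the percentile was 11.3 and 10.5 in ASC, against 70.5 and 66.7 in QSC (shift -1.72, SE 0.21, limma adjusted p = 0.000622). Near the end of Mgll, which splits monoacylglycerols, it was 18.7 and 6 in ASC, against 79.7 and 89.2 in QSC (shift -2.26, SE 0.28, adjusted p = 0.000645). A region 373 bp from the end of Ckb, brain-type creatine kinase, had 0.284 and 0.174 in ASC, against 31.5 and 41.5 in QSC, and 0.251 to 0.515 in the cultured libraries. Gatb, a subunit of the enzyme that makes mitochondrial glutaminyl-tRNA, fell within the top of the range, with folds of 7.19 and 6.48 in ASC, against 10.8 and 9.99 in QSC. Its peaks covered 1034 bp and 1127 bp in ASC, against 705 bp and 742 bp in QSC, and by fold times covered length its shift turned to 0.16 (adjusted p = 0.619). Tmem191c and the ends of Dpp9 (a cytosolic dipeptidyl peptidase), Kcns3 (a potassium channel subunit) and Bcan (brevican, a matrix proteoglycan of brain) made up the 8. Their shifts lay between -2.47 and -1.82. By fold times covered length the shift of Bcan turned to 0.06 (adjusted p = 0.838).

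List counts here and in the next paragraph are to be read against all constitutive regions, of which 9.95% were called higher and 9.78% lower. No list was tested against another. Among the listed genes, contractile genes had 5 members that rose in ASC and 1 that fell, of 29, with a median shift of 0.07 against 0.03 over all members. Ttn (titin), at its start, had percentiles of 38.9 and 44.6 in ASC, against 5.68 and 1.18 in QSC (shift 1.71). Mylk2, the myosin light chain kinase of skeletal muscle, rose by 1.43 and Xirp1, a repeat protein of the sarcomere's edge, by 1.58, and Casq1, the calcium store protein, fell by 1.28. Smyd1, a methyltransferase of myofibril assembly counted with the myogenic program, rose by 1.56. Genes known from quiescent cells had 4 members that rose and none that fell, of 31 (median shift 0.14). They were at Vcam1 (an adhesion molecule; shift 1.81), Heyl (a Notch target; 0.96), Bmp6 (a secreted growth factor; 0.92) and the end of Spry1 (an inhibitor of growth factor signalling; 1.24).

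Pax7, which marks satellite cells, fell on the same comparison. Its start had percentiles of 5.01 and 7.31 in ASC, against 19.5 and 33.5 in QSC (shift -0.90, SE 0.28, limma adjusted p = 0.0425), and 1.9 to 3.46 in the 4 cultured libraries. Of each list of the basic machinery, at most 5 members were called. Splicing factors had 1 higher and 4 lower of 35, the mitochondrial ribosome 1 and 4 of 78, the proteasome 0 and 2 of 37, and the cytosolic ribosome 0 and 2 of 79. Ccnb2, cyclin B2 of mitosis, was the only cell cycle member called, with percentiles of 98.5 and 98.9 in ASC, against 88.8 and 78 in QSC (shift 1.23). Markers of other cells moved both ways: Col3a1, a collagen of fibroblasts, rose by 2.21, and Cldn5, a junction protein of endothelium, fell by 0.88. Leukocyte markers had 1 higher and 2 lower of 6 members, endothelial 2 and 1 of 7, fibroadipogenic 1 and 0 of 9, mural 0 and 1 of 11 and glial 1 and 0 of 9, and their part in the shifts was not tested.

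The number of called members in ASC against QSC depended on single libraries and on the measure ranked. Fewer were called without QSC replicate 2, QSC replicate 1 or ASC replicate 2, where the median shift over members was 0.06, 0.00 and -0.04. The called share of all constitutive regions fell there too. With peaks of a −log10 q of at least 5 alone, 406 members rose and 465 fell (8% of members; 13.4% of all constitutive regions were called). Ranked by −log10 q in place of fold, 1958 rose and 1606 fell (25.6% of members; 35.4% of all constitutive regions were called).

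The comparison of LncMyod Control with ASC sets cells cultured for differentiation against cells taken from injured muscle, so culture, time and siRNA transfection cannot be told apart. In LncMyod Control 459 members rose and 967 fell (10.3% of members; 16.4% of all constitutive regions were called, 8.92% higher and 7.45% lower). Away from gene ends the split was the reverse, with 2634 higher and 1618 lower. Both classes share 1 ranking, so a fall of members raises the ranks of the rest, and the splits are not independent. With ranks over the members alone 634 rose and 494 fell. With percentiles within each library's whole peak list, by contrast, 431 rose and 723 fell (8.3% of members; 13.7% of all constitutive regions were called). With peaks of a −log10 q of at least 5 alone, 285 rose and 369 fell (6.01% of members; 9.94% of all). Ranked by −log10 q in place of fold, 1288 rose and 3118 fell (31.7% of members; 35.1% of all).

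The member that rose with the lowest p was 415 bp from the end of Pkhd1, the gene of fibrocystin, a protein of primary cilia. Its folds were 10.8 and 10.7 in LncMyod Control, against 4.13 and 3.29 in ASC, and 11.7 and 9.1 in LncMyod Knockdown (percentiles 98.5 and 99 in LncMyod Control, against 31.8 and 29.3 in ASC; shift 2.76, SE 0.24, limma adjusted p = 0.000271). Gpr52, an orphan receptor, had 91.2 and 87.1 in LncMyod Control, against 11.5 and 3.76 in ASC. Nos2, inducible nitric oxide synthase, had 75.5 and 75.9 against 10.2 and 12.5. The end of Dhx30 (an RNA helicase), which is also in reach of Map4 (a microtubule-associated protein), had 40.9 and 46.4 against 1.03 and 0.523. Ends of Cdk5rap3, Klhl6, Rps6kc1 and Serpinf2 (an inhibitor of plasmin) completed the 8, and at Pkhd1, Gpr52, Klhl6 and Serpinf2 the fall in ASC against QSC was called too (3.76 to 32.4 in ASC, against 53.1 to 87.7 in QSC). At Nos2 the ASC libraries also lay below those of QSC (10.2 and 12.5, against 18.4 and 30.4), with a shift that was not called. Of the 8 named members that rose, 6 lay at gene ends only, and for Gpr52 and Nos2 the strand was not known.

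Of the 8 named members that fell in LncMyod Control, 4 lay at starts only and 1 at a start and an end, and for 3 (Ephx2, Rbfox2 and Tnnt3) the strand was not known. The region at an end of Ephx2, soluble epoxide hydrolase, had percentiles of 4.67 and 4.06 in LncMyod Control, against 95.1 and 85.6 in ASC, with folds of 3.04 and 2.82 against 8.29 and 5.93 (shift -3.07, SE 0.25, limma adjusted p = 0.000244). Dhrs9, a dehydrogenase of retinoids and steroids, had 30.7 and 34.6 at its start in LncMyod Control, against 93.6 and 95.9 in ASC. Tmem45a had 32.1 and 38.8 against 89.8 and 91.2. Htra3, a secreted serine protease, had 0.174 and 0.238 against 33.2 and 33.9. Rbfox2, a splicing regulator that acts in muscle, had 0.223 and 0.431 against 24.1 and 39.5. Cgref1 had 0.137 and 0.0274 at its start, against 17.3 and 33.3. The QSC libraries sided with ASC at Ephx2, Tmem45a, Htra3 and Rbfox2, between 39.7 and 91.1.

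The remaining 2 were at Tnnt3 and Cd68. Tnnt3, fast skeletal troponin T, fell to percentiles of 0.521 and 0.645 in LncMyod Control, against 39.7 and 52.3 in ASC (shift -2.42, SE 0.31, limma adjusted p = 0.0012). Over the same gene the peaks covered 4161 bp and 4096 bp in LncMyod Control, against 907 bp and 548 bp in ASC: the open stretch was longer while the fold over background was lower. Ranked by fold times covered length, an alternative chosen after seeing the data, Tnnt3 rose (shift 2.33, adjusted p = 0.0059). Cd68, a lysosomal glycoprotein of macrophages whose start shares its region with the gene of the translation factor Eif4a1, had 0.0562 and 0.088 in LncMyod Control, against 17 and 22.8 in ASC. Its covered length was 879 bp and 790 bp in LncMyod Control, against 445 bp and 358 bp in ASC, and by fold times covered length its shift was 0.01.

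For the lists here and in the next paragraph the measure is all constitutive regions, of which 8.92% were called higher and 7.45% lower. No list was tested against another. Of the 29 members of contractile genes, 6 fell and 1 rose in LncMyod Control, with a median shift of -0.36 against -0.19 over all members. Actn3 (fast-fibre alpha-actinin) had a shift of -1.16, Actn2 -0.91, the end of Mylpf (fast regulatory myosin light chain) -1.53 and the end of Ryr1 (the calcium release channel) -1.49. Mybpc1, myosin-binding protein C, rose by 0.79. Of genes known from quiescent cells 4 members fell and none rose: Vcam1 (shift -1.64), Heyl (-1.27), Cd34 (a surface glycoprotein; -1.25) and Calcr (the calcitonin receptor; -1.25). Myod1 fell by 0.96 (SE 0.28, limma adjusted p = 0.0411). The cell cycle list had 3 that fell, Ccnb2, E2f4 (a repressor of cell cycle genes) and Cdk2, and 1 that rose, Ccnd1. Among markers of other cells, the leukocyte list had 1 higher (Spi1, a transcription factor, by 1.31) and 1 lower (Cd68, described above, which fell by 2.34) of 6. Mural markers had 1 higher (Acta2, smooth muscle actin, by 1.71) and 0 lower of 11, endothelial 0 and 1 of 7 (Flt1, a receptor of vascular growth factor, fell by 0.77), fibroadipogenic 0 and 0 of 9 and glial 0 and 1 of 9 (Mbp, a myelin protein, fell by 1.00). The median shifts of these lists were -0.46, -0.12, -0.36, -0.53 and -0.29, against -0.19 over all members, and the part of such cells was not tested.

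Calls in lists of the basic machinery were as follows. The proteasome had 2 higher and 1 lower of 37 (Psmb3 and Psmd9 higher, Psmc1 lower). Mediator had 2 and 0 of 28, with Med4 higher by 1.17, splicing factors 2 and 1 of 35, the mitochondrial ribosome 1 and 0 of 78 and the cytosolic ribosome 1 and 1 of 79. RNA polymerase II had 1 and 0 of 12, with Polr2e higher by 0.87, and SWI/SNF 0 and 1 of 22, with the end of Smarcb1 lower (shift -1.70). The peaks at that end covered 1992 bp and 1974 bp in LncMyod Control, against 672 bp and 458 bp in ASC, so fold and length moved apart. None was called among the synthetases, and immediate early genes had 1 higher (Fosb, an AP-1 subunit) and 1 lower (Fosl1, another). At Fosb the peaks were shorter in LncMyod Control, 1266 bp and 1277 bp, against 2273 bp and 3283 bp in ASC. Over all members fewer were called without LncMyod Control replicate 1, LncMyod Control replicate 2 or ASC replicate 2, where the median shift was -0.18, -0.21 and -0.12. The called share of all constitutive regions fell there too.

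The comparison of LncMyod Knockdown with LncMyod Control asks whether lowering LncMyod changes open chromatin in cultured cells. No member was called (0% of all constitutive regions were called by limma), the lowest adjusted p being 0.413. At an unadjusted p under 0.05 there were 654 of 13900 members (4.71%), against 6.54% of all constitutive regions and 7.77% of those away from gene ends. That count was 343 without LncMyod Control replicate 1, 347 without LncMyod Knockdown replicate 2 and 1148 without LncMyod Knockdown replicate 1. With percentiles within each library's whole peak list it was 1659, with no member called. The shifts of members had a median of 0.11 and ran from -0.46 at the 5th to 0.47 at the 95th percentile, a narrower spread than -0.92 to 0.71 in LncMyod Control against ASC.

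The 6 members of lowest p are given as values. Zfp423, a zinc-finger factor of adipose and neural development, had percentiles near its end of 10.1 and 6.38 in LncMyod Knockdown, against 47 and 53.2 in LncMyod Control (shift -1.40, SE 0.26, limma adjusted p = 0.413). Svop, a transporter-like protein of synaptic vesicles, had 69.8 and 46.6 against 97.6 and 92.4, and Krt90, a keratin, 48.1 and 30.4 against 88.9 and 77.8. In the other direction Itfg2 had 99.2 and 99.6 in LncMyod Knockdown, against 94.6 and 94.8 in LncMyod Control. Dennd2d, a Rab exchange factor, had 45.6 and 38.5 against 11.7 and 12.5, and the region of Rffl and Rad51d (a recombination protein) 86.4 and 94.7 against 73.2 and 64.5. These 6 were picked for their low p, so their separation is a description. Myod1, next to which LncMyod is encoded, had 7.8 and 15.9 in LncMyod Knockdown, against 3.45 and 6.53 in LncMyod Control (shift 0.46, SE 0.28, adjusted p = 0.79). By fold times covered length 18 members were called, 8 higher and 10 lower, which is 0.129% of members against 0.0981% of all constitutive regions.

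Setting both cultured groups against both isolated groups asks what the cultured cells share. In cultured cells 950 members rose and 2100 fell (21.9% of members; 31.3% of all constitutive regions were called, 15.6% higher and 15.7% lower). With percentiles within each library's whole peak list 1396 rose and 1167 fell (18.4% of members; 29.1% of all constitutive regions were called). With ranks over the members alone 1331 rose and 1376 fell. Ranked by −log10 q in place of fold, 2151 rose and 4344 fell (46.7% of members; 50.3% of all). Fewer were called without LncMyod Control replicate 2, LncMyod Control replicate 1 or QSC replicate 2, where the median shift over members was -0.13, -0.11 and -0.10. The called share of all constitutive regions fell there too. Members at gene ends only were called in 32.2% and those at starts only in 20.1%.

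The 8 members named for their rise were led by Pkhd1, Nt5e and Lmod2. The start of Lmod2, a leiomodin of striated muscle whose window is printed above, had percentiles of 80.8 and 73.4 in LncMyod Knockdown, 71.4 and 79.7 in LncMyod Control, 5.32 and 21.8 in ASC and 0.157 and 0.275 in QSC (shift 2.75, SE 0.21, limma adjusted p = 3.39e-05). No cultured library overlapped an isolated one, and ASC was above QSC. Ccnd1, cyclin D1 of the G1 phase, had 71.4 and 69, 68.3 and 79.7, 6.95 and 18.3, and 1.67 and 4.37 in the same order. Nt5e had 94.3 to 97.7 in cultured and 9.43 to 77 in isolated libraries, and Pkhd1 98.5 to 99.8 in cultured and 29.3 to 67 in isolated ones. Sptbn4 (a spectrin, whose region also reaches Blvrb), AI467606, Asb6 and Dhx30 made up the 8.

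Fold and length moved apart at some of these. The peaks at Ccnd1 covered 614 bp and 689 bp in LncMyod Knockdown, 609 bp and 575 bp in LncMyod Control, 2229 bp and 1212 bp in ASC and 1138 bp and 1215 bp in QSC. By fold times covered length its shift was -0.13 (limma adjusted p = 0.63). Sptbn4 had 754 bp to 835 bp in cultured and 1854 bp to 1898 bp in isolated libraries, and by that measure fell (shift -0.97, adjusted p = 0.00279). Over all members the median covered length was 998 bp and 893 bp in LncMyod Knockdown, 937 bp and 944 bp in LncMyod Control, 1041 bp and 964 bp in ASC and 1029 bp and 1005 bp in QSC. The difference of -66.8 bp between cultured (943 ± 43.1 bp) and isolated libraries (1010 ± 34 bp; SD, n = 4 each) did not pass the exact permutation test (two-sided p = 0.0571). After scaling by the length that all peaks of a library covered, it was -198 bp (exact p = 0.0286, the smallest possible).

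The 8 members named for their fall in cultured cells were picked for a low p, and at each of them every isolated library lay above every cultured one. Vwa3b, whose start window is printed above, had percentiles of 20.9 and 20.2 in LncMyod Knockdown, 17.2 and 31 in LncMyod Control, 71.8 and 69.7 in ASC and 96.6 and 97.1 in QSC (shift -1.97, SE 0.15, limma adjusted p = 3.27e-05). The end of Scarf2, a scavenger receptor family member, had 0.797 to 2.59 in cultured and 26.5 to 64.3 in isolated libraries. Khk, the ketohexokinase of fructose metabolism, shares its region with Emilin1, a matrix glycoprotein, and had 2.63 to 6.47 in cultured and 37.2 to 59.5 in isolated libraries. Stac2, of a family of calcium channel regulators, had 16.1 to 23.4 in cultured and 66 to 76.7 in isolated libraries. Its peaks were longer in culture, 2260 bp to 2291 bp, against 634 bp to 979 bp, and by fold times covered length it rose (shift 1.39, adjusted p = 0.0015). Ephx2, Rbfox2, Htra3 and Tmem45a completed the 8.

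**Figure D5:**
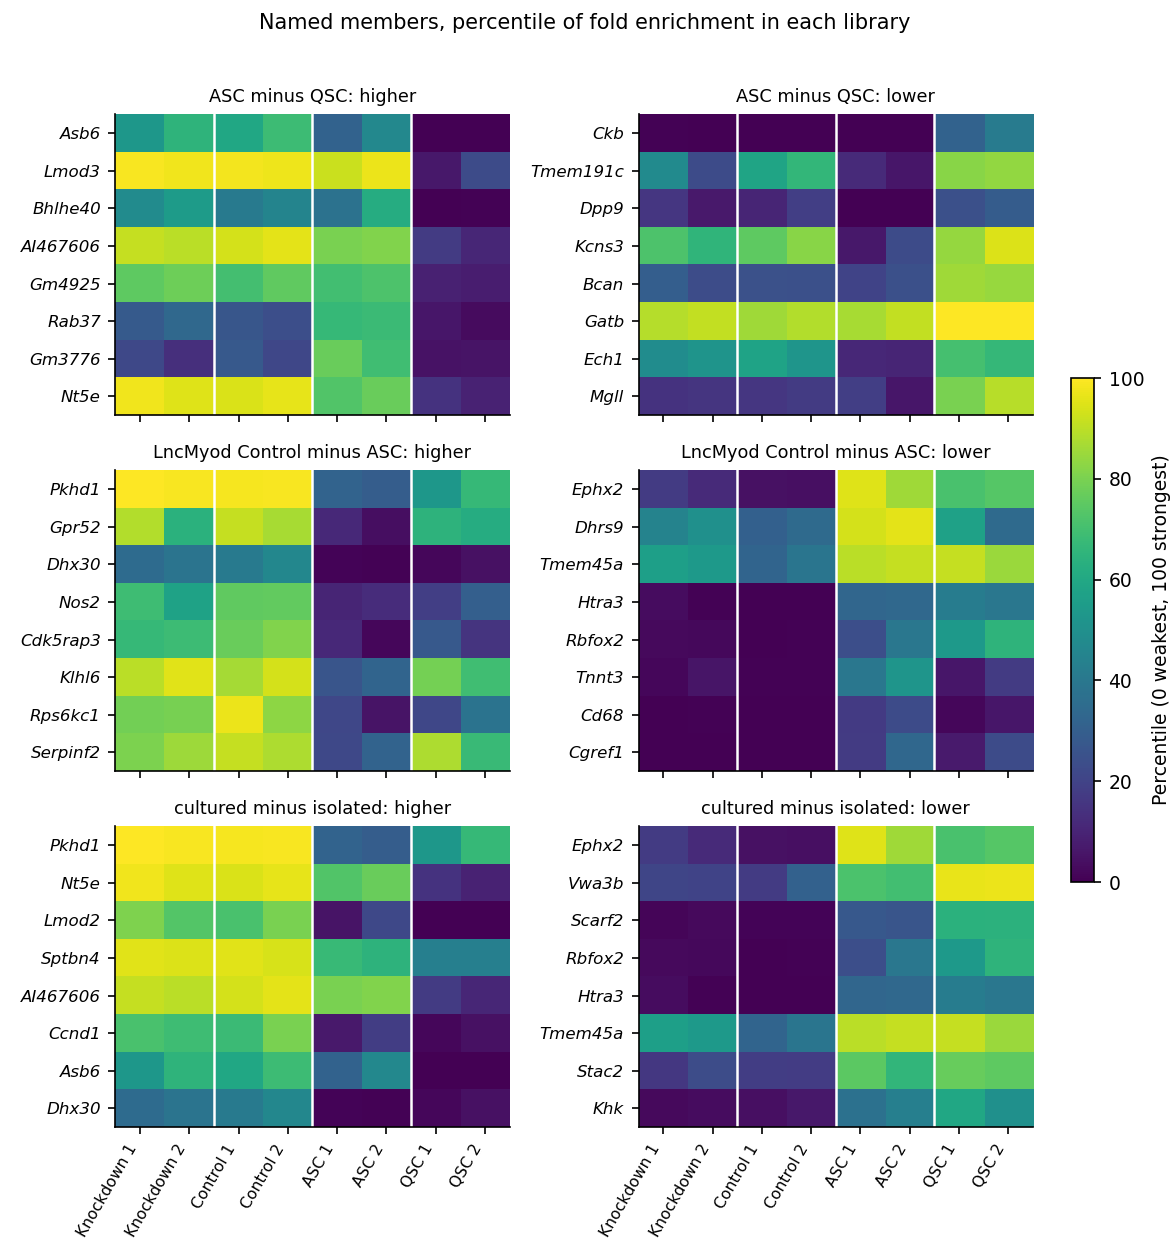
Percentile of fold enrichment (colour, 0 weakest to 100 strongest) of the named members (rows) in each of the 8 libraries (columns), for the 8 lowest p in each direction of 3 comparisons. Lmod3 is high in ASC and both cultured groups (91.8 to 99) and low in QSC (6.37 and 22.7), and Ephx2 is low in the 4 cultured libraries (4.06 to 17.2) and high in ASC and QSC (71.3 to 95.1).

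Counts for the gene lists in cultured against isolated cells are to be read against the 15.6% of constitutive regions that were called higher and 15.7% lower, and no list was tested against another. Immediate early genes had 7 members that rose and 2 that fell of 33, with a median shift of 0.15 against -0.12 over all members. They included both regions of Fosb, the start (1.01) and the end (1.61), both of Zfp36 (an RNA-binding protein that destabilises messages; 0.72 and 1.14), Klf4 (0.83), Egr2 (0.64) and Ier3 (0.53). The peaks at the start of Fosb were shorter in culture, 1032 bp to 1431 bp, against 2273 bp to 3283 bp in isolated libraries. There fold and length moved apart, and at the other regions named here as risen the lengths overlapped. Myc fell by 0.61 and Fosl1 by 0.84. Contractile genes had 6 that rose and 10 that fell of 29 (median shift -0.25), with Smyd1 of the myogenic list higher by 1.21, and Tpm1 (tropomyosin) by 0.66, while the end of Acta1 (skeletal actin) fell by 1.51.

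The myogenic program had 3 members that rose and 6 that fell of 33, and genes known from quiescent cells 1 and 2 of 31. Musk, the kinase of the neuromuscular synapse, Smyd1 and Tead1, a partner of YAP, were the 3 that rose. Pax7 had a shift of -0.85 (SE 0.20, limma adjusted p = 0.00823), and Cd34 -1.22, and Calcr also fell, while Notch3 rose by 1.04. The peaks at Notch3 were shorter in culture, 1645 bp to 2140 bp, against 2978 bp to 3352 bp in isolated libraries, so its fold and length moved apart. In the cell cycle list Ccnd3 (cyclin D3) rose by 1.03 besides Ccnd1, and E2f4 fell by 1.39. The mitochondrial ribosome had 4 higher and 8 lower of 78, the proteasome 3 and 6 of 37, Mediator 5 and 1 of 28, the cytosolic ribosome 4 and 3 of 79, splicing factors 3 and 1 of 35, the synthetases 3 and 0 of 27, SWI/SNF 0 and 3 of 22 and RNA polymerase II 1 and 1 of 12. Among markers of other cells the mural list had 2 higher and 3 lower of 11, leukocyte 0 and 2 of 6, endothelial 0 and 1 of 7, fibroadipogenic 1 and 1 of 9 and glial 1 and 2 of 9, and their part was not tested. Keratins had 0 and 2 of 6, and hosts of small nucleolar RNAs 1 and 2 of 15.

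At the edge of the rule the members resembled their neighbours outside it. The 207 members 900 bp to 1000 bp from the nearest gene end had a median percentile of 38.9 and a median width of 1157 bp. The 188 constitutive regions 1001 bp to 1100 bp away had 40.6 and 1104 bp. Just inside, at 1000 bp, lay regions near Cpped1, Tmem150cos, Vps37b and LOC115489499 (median percentiles 39.7 to 73.5), and just outside lay those near Gm46452 and Zfp369 at 1001 bp and Oit1 and Gm39624 at 1002 bp (4.57 to 83.3).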

How the data were processed

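ATAC-seq lists of broad peaks from 8 libraries were used, a list per library, so peaks were called per library. Per the submitters' processing notes, the authors worked on build mm10 and used MACS2 2.1.1, Bowtie2 2.3.2, bedtools 2.26.0, SAMtools 1.3, Trimmomatic 0.36, Picard 2.9.2 and bcl2fastq 2.19. Settings, read shift and read filters were not given in the sources used here. The deposited fold enrichment is a ratio over background, and the authors also give −log10 p and −log10 q for each peak. The deposited display score was not used. The lists hold no counts, so the depth behind a value is unknown.

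Peaks on chromosomes 1 to 19 were merged where they overlapped, and a region's highest fold in a library was ranked over the 34676 regions held by all 8 libraries, which gives each library the same list length. Ranks became normal scores and were fitted with limma 3.58.1 (R 4.3.3; 4 group means, trended variance), adjusted by Benjamini-Hochberg over all regions. Gene ends are the outer ends of RefSeq genes (GRCm38.p6, predicted transcripts included), and strand came from the promoter table. Single values were compared with exact permutation tests, and 2 libraries against 2 cannot go below p = 0.333 in such a test. The fit was tested on simulated data. Other tools were numpy 2.4.6, pandas 2.3.3, scipy 1.17.1 and matplotlib 3.10.9.

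Named members were, for each comparison and direction, the 8 with the lowest p among called ones (3 where none was called), the strongest, weakest, widest and steadiest, and a fixed set of genes. Members, gene lists and motifs were chosen with earlier results of these data known. Samples with the same replicate number were not paired in the main fit. The correlation of their deviations lay between 0.03 and 0.16 over the 6 pairs of groups, highest for LncMyod Knockdown with ASC. Whether such samples share a batch was not tested.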

Additional observations from a re-analysis of the deposited data

How the results depend on the processing

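The count of called members was 1465 for ASC against QSC, 1426 for LncMyod Control against ASC, 0 for LncMyod Knockdown against LncMyod Control and 3050 for cultured against isolated cells. Ranked by −log10 q instead of fold, the counts with calls were 3564, 4406 and 6495, and with peaks of a −log10 q of at least 5 they were 871, 654 and 1956. Leaving out 1 library gave 610 to 1447 for ASC against QSC, 398 to 1381 for LncMyod Control against ASC, 0 in every case for LncMyod Knockdown against LncMyod Control and 1905 to 2790 for cultured against isolated cells. Without QSC replicate 2, QSC replicate 1 or ASC replicate 2 the first was 610, 684 or 864. Without LncMyod Control replicate 1 or 2 or ASC replicate 2 the second was 398, 412 or 627, and without LncMyod Control replicate 2 or 1 or QSC replicate 2 the last was 1905, 1977 or 2002. A group left with 1 library is assumed to vary like the others. In each of these settings, for the comparisons with calls, a smaller share of members than of all constitutive regions was called. With a replicate block the counts were 1523, 1475, 0 and 3200, and no call among the named members changed.

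Ranks over the members alone, fold times covered length, and leaving out ASC replicate 2 with LncMyod Knockdown replicate 2 were chosen after seeing the data. Without those 2 libraries ASC against QSC had 846 calls and LncMyod Control against ASC 637. By fold times covered length LncMyod Control against ASC had 726 calls and LncMyod Knockdown against LncMyod Control 18, and 11 named shifts changed sign: Bcan (0.06), Gatb (0.16), Tnnt3 (2.33), Cd68 (0.01), Itfg2 (-0.10), Dennd2d (-0.31), Rffl (-0.29), Krt90 (0.42), Sptbn4 (-0.97), Ccnd1 (-0.13) and Stac2 (1.39). This measure counts length as well as fold. Of 968 refits of named shifts, which were picked for low p, 949 kept direction and side of the threshold. With the stricter peak threshold 41 could not be fitted, since the member did not overlap exactly 1 region that all 8 libraries then held. Over all members, fold times covered length kept only part of the main calls. It called 416 of the 1465 for ASC against QSC, 69 of these in the opposite direction. For LncMyod Control against ASC it called 273 of the 1426 (39 opposite). For cultured against isolated cells it called 1158 of the 3050 (131 opposite). The start-to-end gap differed by -6.16 points between cultured and isolated cells when ranked by −log10 q (exact permutation p = 0.0286), and the covered length by -198 bp when scaled to the total. The causes were not tested.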
